A study of Mus musculus with 18 samples.

Results

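The transcription factor AP-1 and its relative Atf3 were followed in the mouse retina before and after optic nerve crush. The members were the genes Jun, Junb, Jund, Fos, Fosb, Fosl1, Fosl2 and Atf3, and every probe annotated with 1 of these symbols was taken, which gave 12 probes of 8 genes among 46116 probes on the array and 17658 gene symbols. Jun, Jund, Fos, Fosl1 and Atf3 had 1 probe each, Junb and Fosb had 2 and Fosl2 had 3. No probe was left out for a low signal, so all 12 were tested.

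The study asked how the retinas of 2 inbred strains differ in their response to this injury, in which the nerve was held with forceps for 10 seconds. Male DBA/2J and C57BL/6J mice of 60 to 90 days of age were examined 2 days after the crush, 5 days after the crush or without a crush (control), with 3 Illumina Mouse-6 V1.0 BeadChip arrays in each of the 6 groups. Each array held RNA pooled from 2 retinas, per the labels those of both eyes of a mouse. The labels name no transgene, and the control was an uninjured retina, so handling and surgery without a crush were not measured apart from the crush.

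AP-1 is a dimer of basic leucine zipper proteins. Jun proteins pair with each other or with Fos proteins, Fos proteins need a Jun partner, and the pair binds short DNA elements known as the TPA response element (TRE) and the cyclic AMP response element (CRE). Fos, Fosb, Junb, Egr1 and Arc are immediate early genes, whose transcripts appear soon after a stimulus and usually fade quickly. After axon injury the kinases Dlk (Map3k12) and JNK phosphorylate c-Jun in retinal ganglion cells, the neurons whose axons form the optic nerve, and Jun and Atf3 are well known as injury-induced factors of these cells.

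The promoters of Atf3, Jun and Fos are shown because these 3 genes carry the comparisons that follow. Each is 250 bases before to 50 bases after the RefSeq transcription start in the build GRCm38.p6, 5′ to 3′ on the gene's strand, with capitals at the motif match: chr1:191183284-191183583 (minus strand) for Atf3, chr4:95052173-95052472 (minus strand) for Jun and chr12:85473640-85473939 (plus strand) for Fos.
Atf3: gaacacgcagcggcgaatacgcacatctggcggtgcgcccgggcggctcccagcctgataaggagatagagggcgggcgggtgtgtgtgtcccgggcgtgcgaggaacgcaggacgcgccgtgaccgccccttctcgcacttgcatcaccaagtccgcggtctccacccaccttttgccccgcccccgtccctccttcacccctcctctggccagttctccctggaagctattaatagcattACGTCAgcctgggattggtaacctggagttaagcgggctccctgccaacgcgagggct
Jun: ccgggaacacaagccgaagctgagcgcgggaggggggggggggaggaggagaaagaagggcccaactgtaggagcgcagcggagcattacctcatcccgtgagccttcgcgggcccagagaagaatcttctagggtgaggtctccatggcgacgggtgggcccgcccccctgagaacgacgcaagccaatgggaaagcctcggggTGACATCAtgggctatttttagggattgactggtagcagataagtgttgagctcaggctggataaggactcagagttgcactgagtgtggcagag
Fos: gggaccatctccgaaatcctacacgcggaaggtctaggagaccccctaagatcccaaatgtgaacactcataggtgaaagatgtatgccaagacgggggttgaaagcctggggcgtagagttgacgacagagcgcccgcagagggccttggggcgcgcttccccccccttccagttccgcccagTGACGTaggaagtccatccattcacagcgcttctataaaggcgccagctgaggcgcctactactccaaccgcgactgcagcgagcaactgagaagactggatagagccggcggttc
Letter strings were searched on both strands. They were TGANTCA for the TRE, with any base at N, the full CRE TGACGTCA, the CRE core TGACGT and TGACATCA. The CRE core lies within the full CRE, and TGACATCA is the AP-1-like element known from the Jun promoter. Atf3 held the CRE core on the other strand (ACGTCA as printed) with its first letter 8 bases before the start, Fos held TGACGT 66 bases before it, and Jun held TGACATCA 45 bases before it. Of 32851 RefSeq windows of this length, 7.81% held TGANTCA, 1.79% the full CRE, 7.51% the CRE core and 3.62% the Jun element. RefSeq promoter windows were at hand for 7 of the 8 genes, and those of Junb, Jund, Fosb and Fosl2 held none of the 4 strings.

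Levels are given on the study's scale, in which the log2 intensities of each array were set to a mean of 8 and a standard deviation of 2. Over the 18 arrays, 1 unit corresponded to 0.51 to 0.66 on the log2 scale (median 0.56, a 1.47-fold step). A difference was called when limma's test over all 46116 probes gave a Benjamini-Hochberg adjusted p below 0.03. Since array signals differ between probes for reasons other than transcript abundance, levels of different probes were not compared as amounts of transcript. Percentiles give the rank of a probe's signal only. In RNA of a whole retina, fewer cells of a type and less RNA per cell cannot be told apart.

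Median intensities of the arrays were 131.5 to 210.4. Some arrays went against their labels. On C57BL/6J control replicate 1, from a mouse labelled male, Xist was at 11.27 units and the Y-linked Eif2s3y at 7.02, against 6.89 to 7.55 and 12.34 to 14.05 on the other 17 arrays. At 2 days, DBA/2J replicate 1 and C57BL/6J replicate 3 each had levels of the strain-dependent genes Alad, Glo1 and Gpnmb near those of the other strain. Gpnmb, for instance, was at 9.42 on the DBA/2J array (other DBA/2J arrays 7.27 to 7.58) and at 7.58 on the C57BL/6J array (other C57BL/6J arrays 8.77 to 10.41). Values of Atf3, Jun and Fos at 2 days are therefore also given without these 2 arrays. C57BL/6J 2 days replicate 1 held the highest level of 3 member probes (Atf3, Jun and the dim probe of Fosb) and DBA/2J 5 days replicate 2 that of another 3 (Fos and both probes of Junb), and the differences given for Atf3, Jun, Junb, Fos and Fosl2 that moved by over 1.5 times without them are given both ways.

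In all, 2 member probes were called, both at 5 days. Atf3 rose in C57BL/6J at 5 days and in the mean change of both strains at 5 days, and a probe of Fosl2 fell in the mean change of both strains at 5 days. The share called was 1 of 12 member probes against 1.36% of all probes for C57BL/6J at 5 days, and 2 of 12 against 4.81% for both strains at 5 days. No member was called in C57BL/6J at 2 days (0.0195% of all probes called), DBA/2J at 2 days (0%), DBA/2J at 5 days (0.0672%), both strains at 2 days (0.18%), between DBA/2J and C57BL/6J controls (0.00434%), or in the difference between the strains' changes at 2 days (0%) or 5 days (0%).

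Atf3, whose gene lies at chr1:191170296-191183333 (GRCm38.p6, RefSeq), is a stress-induced bZIP factor that pairs with Jun proteins, and its probe 1940546 had the largest change of the 12 probes. In DBA/2J its levels were 6.92, 6.94 and 7.02 units in controls, 7.76, 7.60 and 7.33 at 2 days and 7.91, 8.88 and 7.74 at 5 days. The C57BL/6J levels were 7.17, 7.25 and 7.21 in controls, 9.98, 8.16 and 7.67 at 2 days and 9.64, 8.93 and 9.66 at 5 days. In both strains every crushed array lay above every control array of that strain. The control arrays were tight, with a standard deviation of 0.05 in DBA/2J and 0.04 in C57BL/6J, while the spread after crush was wider, up to 1.22 in C57BL/6J at 2 days (n = 3 each).

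In C57BL/6J at 5 days Atf3 rose by 2.20 ± 0.44 units (SE, limma adjusted p = 0.0183, unadjusted 95% interval 1.27 to 3.13) and ranked 380th by p among all probes; the exact permutation test of 3 against 3 arrays (two-sided) gave 0.1, the smallest p it can give. After quantile normalization the rise was 1.15 on the log2 scale, a 2.21-fold difference, with the median of all probes at -0.01. Averaged over both strains at 5 days it was 1.71 ± 0.31 units (SE, limma adjusted p = 0.00508, 95% interval 1.05 to 2.37), or 1.87-fold after quantile normalization, and the exact permutation test within strains gave 0.005, again the smallest possible. The single-strain call at 5 days was lost whichever of its 6 arrays was left out (difference 2.08 to 2.44, adjusted p = 0.0304 to 0.0725). The call over both strains held in each of 12 such fits (1.53 to 1.83, adjusted p = 0.00669 to 0.0158).

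The other Atf3 differences were positive and not called. In DBA/2J at 5 days the difference was 1.22 units (95% interval 0.29 to 2.15, adjusted p = 0.274), or 0.66 on the log2 scale after quantile normalization (1.58-fold), and 0.87 without replicate 2 of that group. At 2 days it was 0.61 in DBA/2J (-0.33 to 1.54, adjusted p = 0.861) and 1.39 in C57BL/6J (0.46 to 2.32, adjusted p = 0.406). The C57BL/6J value rested on replicate 1, without which it was 0.70 (adjusted p = 0.361), while leaving out the 2 arrays whose strain was in doubt gave 1.86 in C57BL/6J and 0.51 in DBA/2J. Over both strains at 2 days the difference was 0.998 (adjusted p = 0.252, exact permutation p = 0.005), 1.18 without the 2 doubted arrays and 0.65 without C57BL/6J 2 days replicate 1 and DBA/2J 5 days replicate 2 (adjusted p = 0.0318).

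By mean level the groups ran from DBA/2J control (6.96 ± 0.05, SD) through C57BL/6J control (7.21 ± 0.04), DBA/2J 2 days (7.56 ± 0.22), DBA/2J 5 days (8.18 ± 0.61) and C57BL/6J 2 days (8.60 ± 1.22) to C57BL/6J 5 days (9.41 ± 0.41). Neighbours overlapped from DBA/2J 2 days upward, and there each gap was within the larger standard deviation of the pair. DBA/2J controls all lay below C57BL/6J controls (difference -0.25, not called). Put as a rank within its array, the Atf3 probe lay at the 27.1st to 36.7th percentile of all probes in DBA/2J controls, the 55.8th to 68.6th at 2 days and the 68.0th to 78.7th at 5 days. In C57BL/6J the percentiles were 45.3 to 51.9 in controls, 66.8 to 85.6 at 2 days and 79.6 to 83.8 at 5 days. Its intensity before scaling was 175.2 to 302.2 in DBA/2J at 5 days against 117.6 to 161.7 in the controls, and 298.9 to 567.8 in C57BL/6J at 5 days against 150.9 to 204.4.

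**Figure D1:**
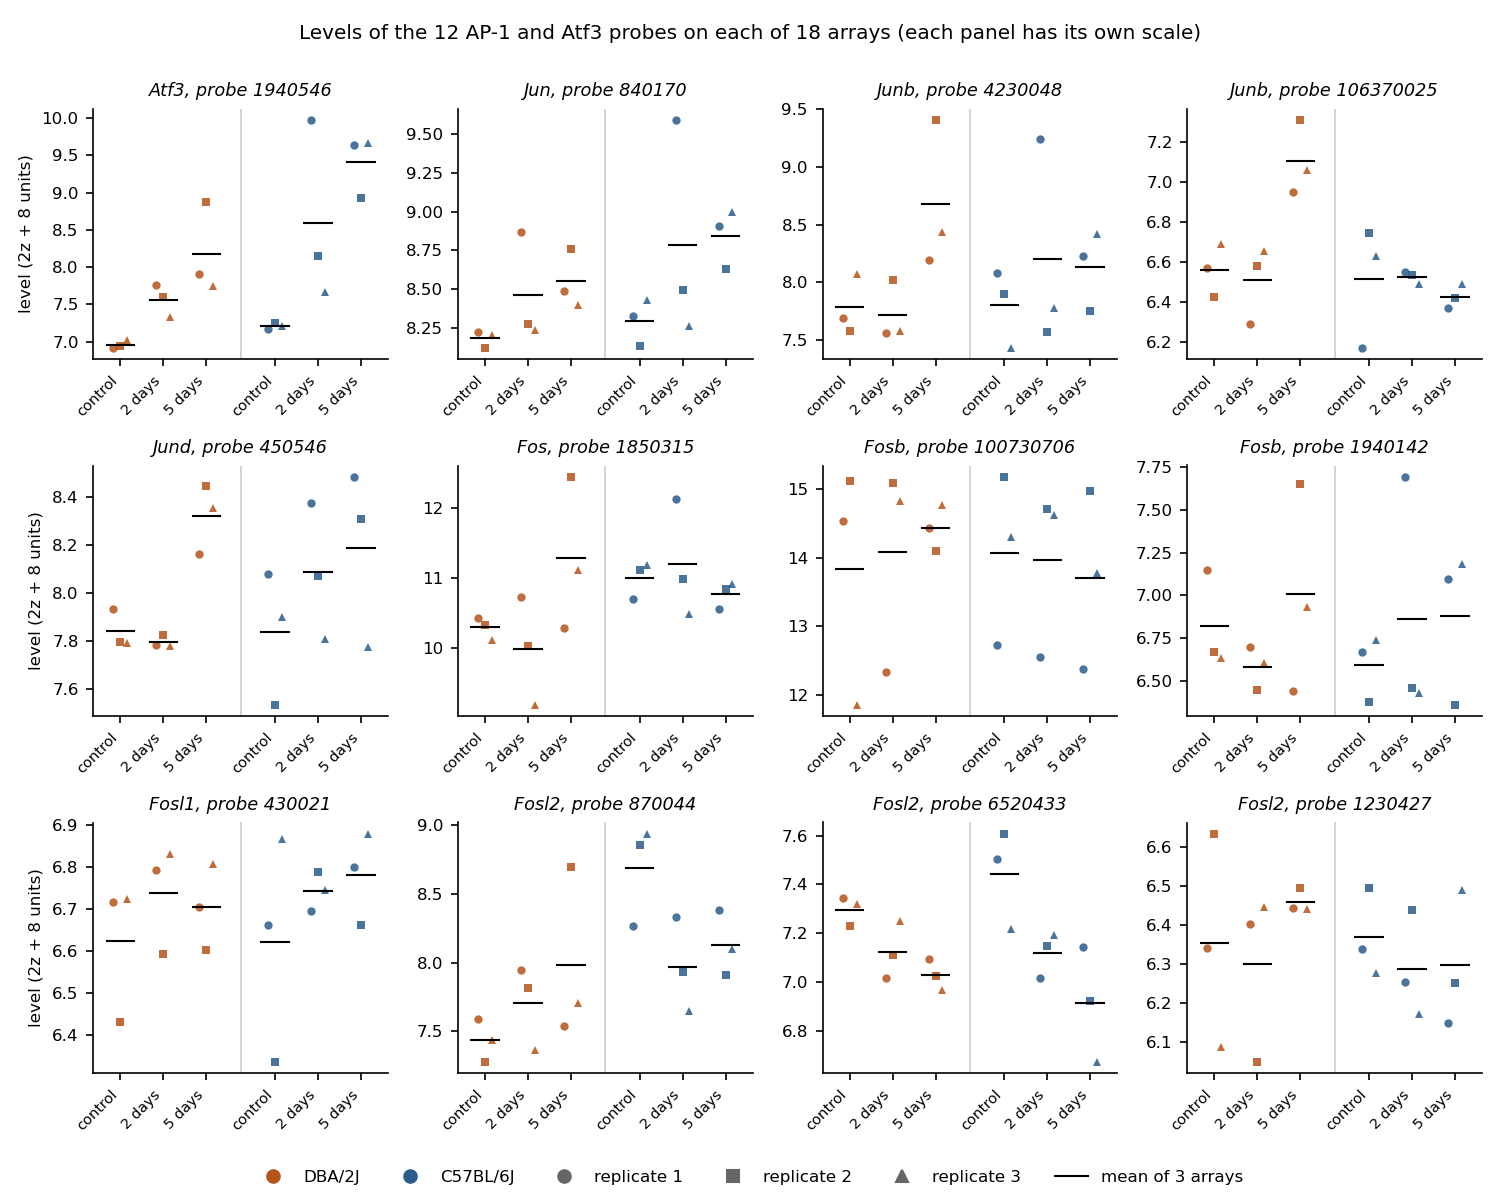
Levels of the 12 member probes in units (vertical axes) on each of the 18 arrays, by group along the horizontal axes, with DBA/2J left of C57BL/6J; points are arrays, their shape is the replicate number and lines are means of 3 arrays. Atf3 reached 8.93 to 9.66 units in C57BL/6J at 5 days against 7.17 to 7.25 in the controls of that strain.

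Markers of other cell states moved at the same time. Over both strains at 5 days, 4 of 6 measured reactive glia genes (Gfap, Serpina3n, Stat3, Osmr) and 5 of 9 genes of microglia and macrophages (Cx3cr1, C1qa, C1qb, C1qc, Tyrobp) rose, and 3 of 11 ganglion cell genes (Rbpms, Thy1, Chrna6) fell. Of all probes, 4.81% were called in this comparison. The summed intensity of the microglia list was 1715 to 3591 in DBA/2J at 5 days against 1239 to 1593 in controls, and 2758 to 4027 in C57BL/6J at 5 days against 1497 to 1960. That of the reactive glia list was 2784 to 15147 against 1366 to 2047 in DBA/2J and 3646 to 5815 against 1555 to 2086 in C57BL/6J. That of the ganglion cell list was 7190 to 10732 against 9731 to 13063 in DBA/2J and 6640 to 12852 against 10385 to 14002 in C57BL/6J. These sums are of intensities before scaling. In scaled units the mean level of the ganglion cell list at 5 days did not overlap the controls. It was 10.16 to 10.31 against 10.92 to 11.04 in DBA/2J and 9.74 to 10.12 against 10.81 to 11.09 in C57BL/6J. Of the remaining marker lists, 1 of 6 rod genes rose, with a median of -0.87 over the list, and 1 of 5 striated muscle genes fell, and the Mueller glia, lens, pigment epithelium, erythroid, vessel and oligodendrocyte lists had no call. The mean level of the lens list ranged widely between arrays, at 7.07 to 15.43 units, and was highest on C57BL/6J control replicate 3. By group it was 8.88 to 15.43 in C57BL/6J controls, 7.20 to 11.00 at 2 days and 7.07 to 8.52 at 5 days. In DBA/2J it was 7.15 to 7.54 in controls, 7.90 to 11.26 at 2 days and 7.33 to 9.05 at 5 days. The C57BL/6J controls thus lay above the DBA/2J controls and above C57BL/6J at 5 days. The part of the lens signal in member differences was not tested. The part of these cells in the Atf3 and Fosl2 results was not tested.

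Jun (chr4:95049036-95052222 in GRCm38.p6, as for the other loci given), the core AP-1 subunit and the main nuclear target of JNK, lay higher after crush on most arrays, but no difference was called. Its levels in DBA/2J were 8.22, 8.12 and 8.20 units in controls, 8.87, 8.27 and 8.23 at 2 days and 8.49, 8.76 and 8.40 at 5 days. In C57BL/6J they were 8.33, 8.13 and 8.43 in controls, 9.59, 8.49 and 8.26 at 2 days and 8.90, 8.63 and 9.00 at 5 days. At 5 days all 6 crushed arrays lay above the controls of their strain, and at 2 days all 3 of DBA/2J and 2 of 3 of C57BL/6J did.

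The Jun difference at 5 days was 0.37 units in DBA/2J (adjusted p = 0.673), 0.55 in C57BL/6J (adjusted p = 0.270) and 0.46 ± 0.19 over both strains (SE, adjusted p = 0.154), with an exact permutation p of 0.005 for the last. With the 12 arrays of controls and 5 days fitted alone, the value over both strains was called (adjusted p = 0.0172). After quantile normalization of all arrays the value over both strains was 0.13 on the log2 scale, a 1.09-fold difference (limma adjusted p = 0.504). At 2 days the differences were 0.28 in DBA/2J and 0.49 in C57BL/6J, and each rested on 1 array. They were 0.07 without DBA/2J 2 days replicate 1 and 0.08 without C57BL/6J 2 days replicate 1, while the C57BL/6J value was 0.75 without the doubted replicate 3. At 5 days the DBA/2J value was 0.26 without replicate 2.

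Junb (chr8:84976909-84978748), a Jun protein that is itself an immediate early gene, had 2 probes that both lay highest in DBA/2J at 5 days. The bright probe, 4230048, was at 7.69, 7.58 and 8.07 units in DBA/2J controls, 7.56, 8.02 and 7.58 at 2 days and 8.19, 9.41 and 8.44 at 5 days. In C57BL/6J it was at 8.08, 7.90 and 7.43 in controls, 9.25, 7.57 and 7.78 at 2 days and 8.23, 7.75 and 8.42 at 5 days. The groups overlapped in C57BL/6J at both times, while in DBA/2J the 5-day arrays lay above the controls. The dim probe, 106370025, at the 6.83rd percentile of mean level, was at 6.95, 7.31 and 7.06 in DBA/2J at 5 days against 6.57, 6.43 and 6.69 in controls, and at 6.37, 6.42 and 6.49 in C57BL/6J at 5 days against 6.17, 6.74 and 6.63.

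For Junb at 5 days the DBA/2J difference was 0.90 ± 0.39 units on the bright probe (adjusted p = 0.384) and 0.54 ± 0.15 on the dim probe (adjusted p = 0.136), and without DBA/2J 5 days replicate 2 it was 0.53 and 0.44. The C57BL/6J differences were 0.33 and -0.09 on the same probes. Both Junb probes thus lay higher in DBA/2J at 5 days without passing the test. The change in DBA/2J minus that in C57BL/6J was 0.63 on the dim probe (unadjusted 95% interval 0.19 to 1.07, adjusted p = 0.999).

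Jund (chr8:70697739-70700616), the constitutive Jun protein of most resting cells, had its highest group means at 5 days. It was at 7.93, 7.79 and 7.79 units in DBA/2J controls, 7.78, 7.82 and 7.78 at 2 days and 8.16, 8.45 and 8.35 at 5 days. In C57BL/6J it was at 8.08, 7.53 and 7.90 in controls, 8.38, 8.07 and 7.81 at 2 days and 8.49, 8.31 and 7.77 at 5 days. The DBA/2J arrays at 5 days did not overlap the controls, whereas 1 C57BL/6J array at 5 days lay among the controls. The difference at 5 days was 0.48 in DBA/2J (adjusted p = 0.312), 0.35 in C57BL/6J (adjusted p = 0.306) and 0.42 ± 0.13 over both (SE, adjusted p = 0.0652, exact permutation p = 0.02). Without C57BL/6J 5 days replicate 3 the last was 0.52 and called (adjusted p = 0.0157). After quantile normalization of all arrays the value over both strains was 0.16 on the log2 scale, a 1.11-fold difference (limma adjusted p = 0.298).

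Fos (chr12:85473890-85477274), the Fos protein that gives AP-1 its rapid and transient form, did not pass the test at either time. In DBA/2J it was at 10.43, 10.33 and 10.12 units in controls, 10.72, 10.02 and 9.19 at 2 days and 10.29, 12.44 and 11.12 at 5 days. In C57BL/6J it was at 10.70, 11.11 and 11.19 in controls, 12.12, 10.98 and 10.48 at 2 days and 10.56, 10.84 and 10.91 at 5 days. The crushed arrays overlapped the controls in every comparison. Its difference at 5 days was 0.99 ± 0.49 in DBA/2J (SE, adjusted p = 0.472), and 0.41 without replicate 2. In C57BL/6J it was -0.23 at 5 days, and at 2 days 0.20, or -0.27 without replicate 1. Without the 2 doubted arrays the values at 2 days were -0.69 in DBA/2J, against -0.32 with all arrays, and 0.55 in C57BL/6J. All 3 DBA/2J controls lay below all 3 C57BL/6J controls (difference -0.70, 95% interval -1.75 to 0.34, adjusted p = 0.914).

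Fosb (chr7:19302696-19310118) encodes a Fos protein whose truncated form is long lived, and neither of its 2 probes gave a call. The dim probe, 1940142, lay at 6.36 to 7.69 units, with its 2 highest values on C57BL/6J 2 days replicate 1 (7.69) and DBA/2J 5 days replicate 2 (7.65), the arrays that were also high for other members. The bright probe, 100730706, split the arrays without regard to group. It was at 11.86 to 12.73 on 5 arrays, DBA/2J control replicate 3, DBA/2J 2 days replicate 1 and replicate 1 of all 3 C57BL/6J groups, and at 13.78 to 15.17 on the other 13. The probes of Vapa, Tsc1, Vhl, Lrrc59 and Noct, named after their values were seen, followed it over the 18 arrays with r of 0.963 to 0.968. Vapa, for instance, was at 13.25 to 13.72 on those 5 arrays and at 14.70 to 15.55 on the other 13.

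Fosl1 (chr19:5447698-5455938), the Fos protein Fra-1, was a dim and flat probe at the 12.6th percentile of mean level. It lay between 6.34 and 6.88 units on the 18 arrays, and the lowest adjusted p of its comparisons was 0.466 (0.12 units over both strains at 5 days).

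Fosl2 (chr5:32136472-32157840), the Fos protein Fra-2, was read by 3 probes that did not move together. The middle probe, 6520433 (48.6th percentile of mean level) fell over both strains at 5 days by 0.40 units (SE 0.09, adjusted p = 0.0158, exact permutation p = 0.005). It was at 7.34, 7.23 and 7.32 in DBA/2J controls, 7.01, 7.11 and 7.25 at 2 days and 7.09, 7.03 and 6.96 at 5 days. In C57BL/6J it was at 7.50, 7.61 and 7.22 in controls, 7.02, 7.15 and 7.19 at 2 days and 7.14, 6.92 and 6.67 at 5 days. At 5 days every crushed array lay below the controls of its strain, and at 2 days 2 of 3 DBA/2J arrays and all 3 C57BL/6J arrays did. By strain the difference at 5 days was -0.27 in DBA/2J (adjusted p = 0.442) and -0.53 in C57BL/6J (adjusted p = 0.0407). After quantile normalization of all arrays the value over both strains was -0.20 on the log2 scale, a 0.87-fold difference (limma adjusted p = 0.0278). Intensities before scaling overlapped. They were 131.7 to 195.1 at 5 days against 131.6 to 181.1 in DBA/2J controls, and 133.5 to 177.4 against 158.1 to 230.3 in C57BL/6J. The call over both strains was lost in 7 of 12 fits that left out 1 array (difference -0.46 to -0.34, adjusted p = 0.0100 to 0.0432), those without replicate 1 or 2 of C57BL/6J control, replicate 2 or 3 of C57BL/6J 5 days, replicate 1 of DBA/2J control or replicate 2 or 3 of DBA/2J 5 days.

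Of the 12 member probes, the brightest one of Fosl2, 870044, had the widest gap between the strains before injury. It was at 7.59, 7.28 and 7.43 units in DBA/2J controls and at 8.27, 8.85 and 8.94 in C57BL/6J controls, a gap of -1.25 ± 0.28 (SE, adjusted p = 0.144, exact permutation p = 0.1). After crush it was at 7.95, 7.82 and 7.36 at 2 days and 7.54, 8.70 and 7.71 at 5 days in DBA/2J, and at 8.33, 7.93 and 7.65 at 2 days and 8.38, 7.91 and 8.10 at 5 days in C57BL/6J. The strains did not overlap before crush. With all arrays they overlapped at both times after it. Without the 2 doubted arrays DBA/2J lay below C57BL/6J at 2 days (7.36 and 7.82 against 7.93 and 8.33). Without DBA/2J replicate 2 it did so at 5 days (7.54 and 7.71 against 7.91 to 8.38). That array was singled out for its high member levels, and the sets left hold 2 or 3 arrays. Whether the gap persisted after crush was not tested. At 5 days the difference from controls was 0.55 in DBA/2J, or 0.19 without replicate 2, and -0.55 in C57BL/6J. The change in DBA/2J minus that in C57BL/6J was 1.10 (unadjusted 95% interval 0.26 to 1.94, adjusted p = 0.999), or 0.74 without that array. The dimmest Fosl2 probe, 1230427, at the 0.748th percentile, lay between 6.05 and 6.63 with no call. Of the 3 Fosl2 probes, 1 fell and the other 2 had no call.

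**Figure D2:**
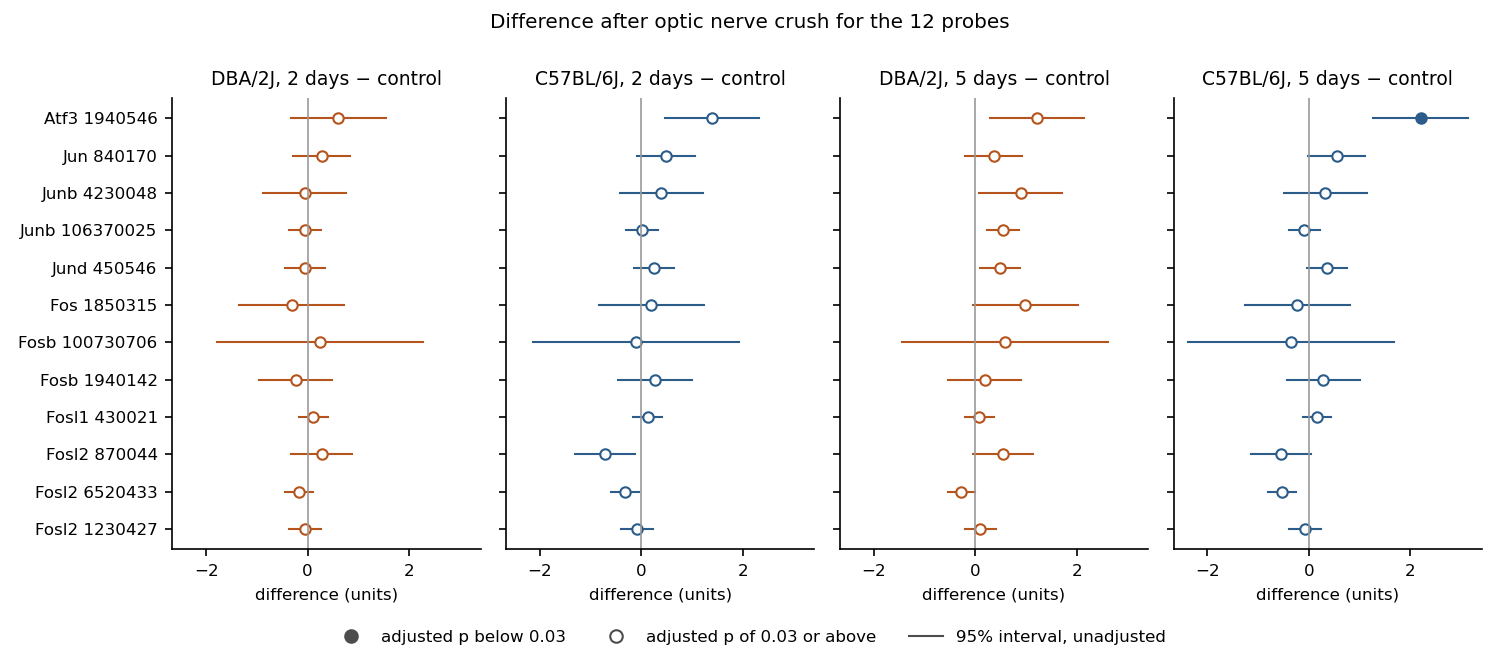
Difference of each member probe after crush from the control of its strain, in units, with its unadjusted 95% interval, in 4 panels by strain and time with DBA/2J before C57BL/6J; filled points passed the adjusted threshold of 0.03. The single filled point is Atf3 in C57BL/6J at 5 days (2.20 units).

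Read without adjustment, a p below 0.05 was reached by 2 of 12 member probes in C57BL/6J at 5 days (19.6% of all probes), 4 in DBA/2J at 5 days (11.3%), 6 over both strains at 5 days (23.7%), 3 in C57BL/6J at 2 days (7.47%), 0 in DBA/2J at 2 days (6.39%), 2 over both strains at 2 days (9.6%), 1 between the controls (6.93%), and 1 and 2 in the difference between the strains' changes at 2 and 5 days (4.14% and 4.23%). In DBA/2J at 5 days 5 member probes (Atf3, Jun, both of Junb and Jund) had all 3 crushed arrays above the controls, where 7% of all probes did, and 1 (Fosl2) had them below (10.5%). In C57BL/6J at 5 days 2 did so above (Atf3 and Jun, 9.58% of all probes) and 1 below (Fosl2, 15.5%).

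At 2 days the member probes that did not overlap the controls were 2 above in DBA/2J (Atf3 and Jun, 4.33% of all probes) and 0 below (7.73%), and 1 above (Atf3, 5.39%) and 1 below (Fosl2, 6.51%) in C57BL/6J. Between the controls, 0 member probes lay wholly higher in DBA/2J (6.31% of all probes) and 3 wholly lower (Fos, Fosl2 and Atf3, 5.78%). The median difference of the 12 member probes was 0.51 units in DBA/2J at 5 days, with 11 of 12 above 0, against -0.04 for all probes, of which 40.8% lay above 0. Without DBA/2J 5 days replicate 2 the members' median was 0.34 with 10 of 12 above 0. In C57BL/6J at 5 days it was 0.04 with 6 of 12 above 0, against -0.06 and 39.8%.

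No member's change differed between the strains by the test of that difference. For Atf3 the change in DBA/2J minus that in C57BL/6J was -0.78 units at 2 days (95% interval -2.10 to 0.53). It was -0.10 without C57BL/6J 2 days replicate 1 and -1.35 without the 2 doubted arrays. At 5 days it was -0.98 ± 0.62 (SE, -2.30 to 0.33, adjusted p = 0.999). For Jun at 5 days it was -0.18 (-0.98 to 0.62) and for Fos 1.22 (-0.26 to 2.69), or -0.29 for Jun and 0.64 for Fos without DBA/2J 5 days replicate 2. The intervals for Atf3 and Fos include differences of more than 2 units, so equal responses were not shown either. The 2 comparisons of a strain share its 3 control arrays, and the strains share none.

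Jun varied with Atf3 among arrays of 1 group, and Junb (bright probe) and Fos did so less stably. After each group's mean was subtracted, r with Atf3 over the 18 arrays was 0.91 for Jun (Spearman's rho 0.81), 0.87 for Junb (0.81), 0.75 for Fos (0.67) and 0.40 for Jund (0.20). Without the 2 arrays farthest from the median in Atf3, C57BL/6J 2 days replicates 1 and 3, these r were 0.73, 0.81, 0.66 and 0.00. The group means subtracted there still included these 2 arrays. The levels themselves gave r of 0.89 for Jun, 0.63 for Junb and 0.52 for Fos. The points share 1 array and its scaling each, so the values are a description. Several members were high together on C57BL/6J 2 days replicate 1 (Atf3 9.98, Jun 9.59, Junb 9.25, Fos 12.12) and on DBA/2J 5 days replicate 2 (8.88, 8.76, 9.41 and 12.44 for the same genes). Without this pair of arrays, and with group means taken anew, r of the deviations was 0.69 for Jun, 0.35 for Junb, 0.33 for Fos and -0.13 for Jund. The likeness of Junb and Fos to Atf3 thus rested largely on this pair. On that DBA/2J array the reactive glia list also averaged 12.51 units, against 9.86 and 9.71 on the other DBA/2J arrays at 5 days, and the microglia list 8.92, against 7.70 and 7.74, and their part in the pattern was not tested. Both arrays of the pair also had a wide signal range. The 95th over the 5th percentile of intensity was 12.8 on the C57BL/6J array and 13.3 on the DBA/2J array. It was 15.4 on C57BL/6J 5 days replicate 3 and at most 11.1 on the remaining arrays. The part of this range was not tested.

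**Figure D3:**
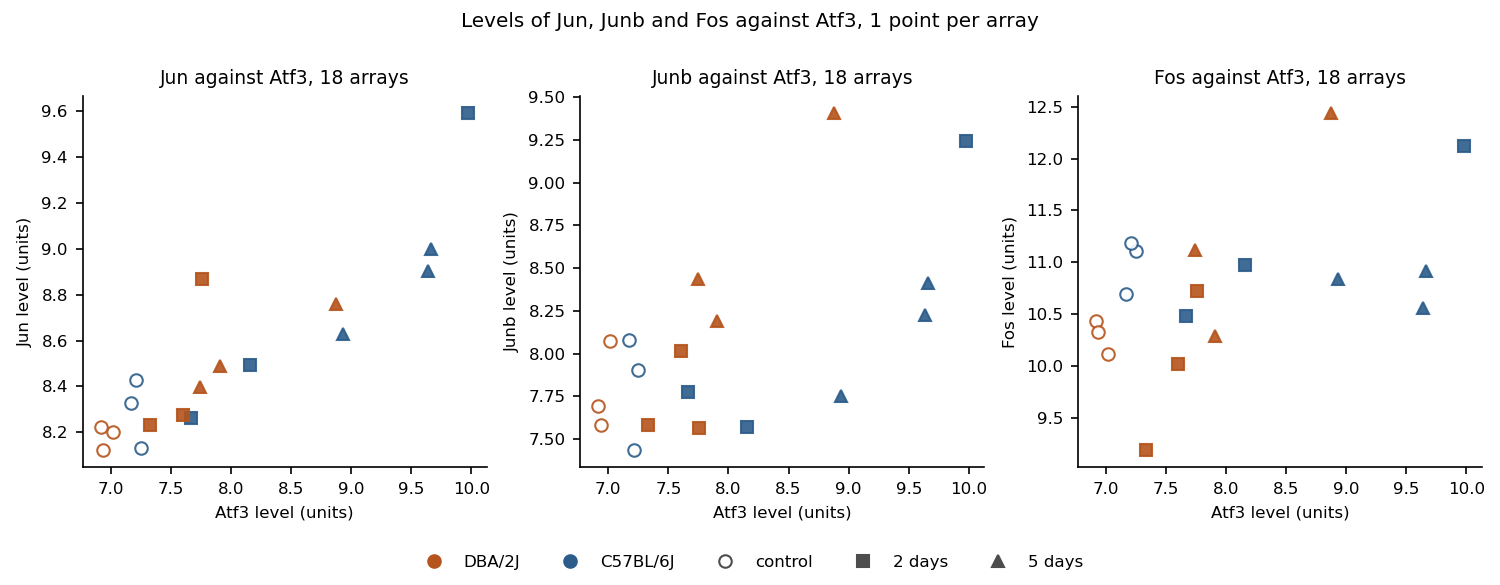
Levels of Jun, Junb (bright probe) and Fos in units (vertical axes) against Atf3 in units (horizontal axes) on the 18 arrays. Colour is the strain, marker shape is control, 2 days or 5 days, and controls are open. The array with the highest Atf3 level (9.98) is C57BL/6J 2 days replicate 1, which also had the highest Jun level (9.59), and the highest Fos level (12.44) was on DBA/2J 5 days replicate 2.

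Among single-symbol probes brighter than the median probe, those most like Atf3 over the 18 arrays were Tnfrsf12a, a receptor of the tumour necrosis factor family (r = 0.957), the injury-induced peptidase Ecel1 (0.943), the zinc finger gene Zfp101 (0.912), the complement gene C1qc (0.911) and the cell cycle inhibitor Cdkn1a (0.904). They were picked for following Atf3 on these same arrays, so a higher level at 5 days came with the choice and is given as a description. The difference over both strains at 5 days was 1.34 units for Tnfrsf12a, 2.56 for Ecel1, 0.70 for Zfp101, 1.47 for C1qc and 1.09 for Cdkn1a. Nearest to Jun were Sprr1a (0.930), known from regenerating sensory neurons, Rmnd1 (0.907), Arfgap1, Scmh1 and Bckdk. Nearest to Fos were the immediate early gene Egr1 (0.892), Lgals4 (0.887), Sostdc1, Samhd1 and Pcolce. By rank, which gives less weight to single high arrays, these likenesses were weaker for Jun and Fos. Spearman's rho was 0.86 to 0.96 for the genes nearest to Atf3, 0.66 to 0.87 for Jun and 0.61 to 0.86 for Fos. Egr1 had its highest levels on the same pair of arrays as Fos, 13.88 on C57BL/6J 2 days replicate 1 and 13.51 on DBA/2J 5 days replicate 2, and its difference over both strains at 5 days was not called (0.50 units, adjusted p = 0.438). In the study's quantitative PCR the Egr1 change from 2 to 5 days had the opposite sign to its arrays in both strains. The paper calls such differences slight.

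Related genes were examined as 5 lists, with a gene read by its brightest probe. The share of all probes called was 4.81% over both strains at 5 days and 0.18% over both strains at 2 days. A single call in a list is not read as a result about the list. Of the AP-1 partners and related bZIP factors, 1 of 15 measured genes rose over both strains at 5 days and none fell. This was Atf5, a bZIP factor of the stress response, at 0.66 ± 0.12 units (SE, adjusted p = 0.0061), which also rose over both strains at 2 days (0.74, adjusted p = 0.022). Its means in controls, at 2 days and at 5 days were 9.46, 10.05 and 10.00 in DBA/2J and 8.92, 9.79 and 9.68 in C57BL/6J. The median difference of the list at 5 days was 0.09, against -0.06 for all probes.

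Of the JNK pathway, 2 of 16 genes rose over both strains at 5 days and none fell, with a median of 0.24. Map3k1, a kinase upstream of JNK, rose by 1.18 units (adjusted p = 0.0102) and Mapk8ip2, a scaffold of the JNK cascade, by 0.83 (adjusted p = 0.0171). Map3k1 means were 14.3, 14.8 and 15.5 in DBA/2J and 13.8, 14.5 and 15.0 in C57BL/6J in controls, at 2 days and at 5 days. The means of Mapk8ip2 were 8.29, 8.74 and 8.93 in DBA/2J and 8.19, 8.42 and 9.20 in C57BL/6J.

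Axon injury response genes, many of them known from injured peripheral neurons, had 5 of 16 genes higher over both strains at 5 days and none lower, with a median of 0.28. These were the neuropeptide Gal (3.85, adjusted p = 2.17e-05), Ecel1 (2.56), the transcription factor Sox11 (2.13, adjusted p = 0.000168), the growth cone protein Gap43 (1.42) and the adhesion receptor Cd44 (1.05, adjusted p = 0.0169). Within strains at 5 days, 4 of the 16 were called higher in C57BL/6J (1.36% of all probes called) and 2 in DBA/2J (0.0672%). Over both strains at 2 days 1 was called higher (0.18%). Of the genes with classical AP-1 sites, 1 of 10 rose, the macrophage elastase Mmp12, and the median was 0.13. Mmp12 rose by 2.72 over both strains at 5 days (adjusted p = 2.17e-05) and by 2.44 at 2 days. It also rose within strains at 5 days (2.33 in DBA/2J and 3.10 in C57BL/6J) and in C57BL/6J at 2 days (2.55). Its means in controls, at 2 days and at 5 days were 7.04, 9.36 and 9.37 in DBA/2J and 7.25, 9.80 and 10.35 in C57BL/6J. Mmp12 is known as a product of macrophages, whose marker list was higher on the same arrays, and their part in its rise was not tested.

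The other immediate early genes (18 measured) had no riser and 1 gene that fell over both strains at 5 days, with a median of -0.07. Ier3, a stress-inducible regulator of survival, fell by 0.97 units (adjusted p = 0.0159), with means of 14.00, 13.06 and 13.04 in DBA/2J and 13.66, 13.40 and 12.69 in C57BL/6J in controls, at 2 days and at 5 days. No gene of the 5 lists was called in the difference between the strains' changes.

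**Figure D4:**
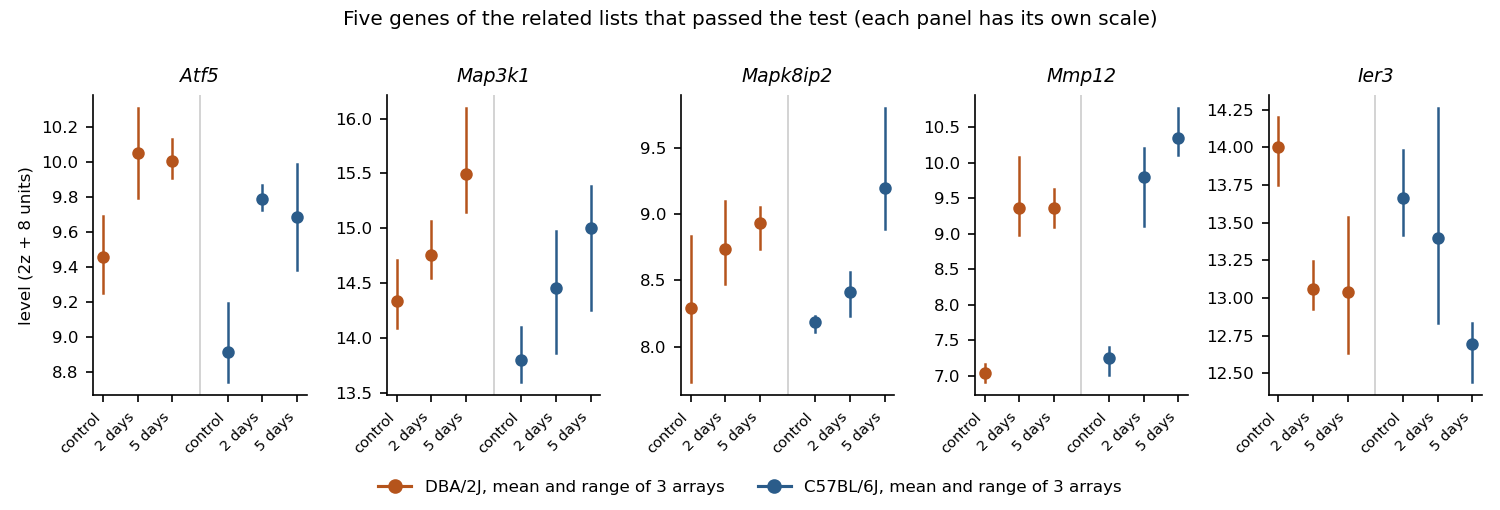
Levels in units (vertical axes) of the called genes Atf5, Map3k1, Mapk8ip2, Mmp12 and Ier3 by group along the horizontal axes, with DBA/2J left of C57BL/6J. Points are group means of 3 arrays and bars run from the lowest to the highest array. Mmp12 averaged 9.37 in DBA/2J and 10.35 in C57BL/6J at 5 days against 7.04 and 7.25 in controls, and Ier3 averaged 13.04 and 12.69 at 5 days against 14.00 and 13.66.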

How the data were processed

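Retinal RNA was hybridised to Illumina Mouse-6 V1.0 BeadChips. The authors deposited raw intensity values per probe and a score table in which log2 values of each array were scaled to a mean of 8 and a standard deviation of 2. The deposited scores were matched within 0.02 units by 99.7% of probes on every array when the intensities were scaled in that way. Of 46116 probes, 29534 carried 1 gene symbol, 11 several and 16571 none. Which array lay on which of the 3 BeadChips is not given in the sources used here, so BeadChip was not modelled.

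Scaled log2 intensities of all 18 arrays were fitted with 6 group means in limma 3.58.1 (R 4.3.3, lmFit and eBayes, 12 residual degrees of freedom), without a filter on low values. P-values were adjusted by Benjamini-Hochberg over all probes and called below 0.03, the false discovery threshold of the study. The mean of both strains' changes and their difference were contrasts of this fit. Single values were also tested over arrays by two-sided exact permutation. No 2 arrays were copies (highest r 0.992). The fit was tested on simulated data. The members and lists were chosen with earlier results of these data known. Every member probe is named, each list's called genes are named (otherwise its 2 genes of smallest p), and for Atf3, Jun and Fos the 5 genes of highest Pearson r. Listed symbols that matched no single-symbol probe were not analysed here. Arrays carry no read depth, and their number limits the precision. The mice are counted as separate on the methods' statement of 3 per group.

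Alternatives were quantile normalization, normexp with an offset of 50 before it, the deposited scores, probes above the median intensity, a threshold of 0.05, an intensity trend, the replicate number as a block, the arrays compared alone, SAM, each replicate left out, and 16 arrays without the 2 whose strain was in doubt. Another setting of 16 arrays was chosen after seeing the data.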

Additional observations from a re-analysis of the deposited data

How the results depend on the processing

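Over 1863 refits of 108 member differences, 0 called values changed sign, 14 refits lost a call and 2 gained one, and 132 uncalled differences changed sign. The number of member probes called moved as follows. SAM called 1 between the controls (the bright Fosl2 probe), where limma called 0. A threshold of 0.05 gave 2 in C57BL/6J at 5 days. Restricting to probes above the median intensity, which drops the Fosl2 probe that fell, gave 1 over both strains at 5 days. With 1 replicate left out, members called were 0 to 0 in C57BL/6J at 5 days and 1 to 2 over both strains at 5 days. Apart from left-out replicates, Atf3 in C57BL/6J at 5 days had adjusted p values of 0.00767 to 0.0196 in the planned settings, and 6.9e-05 without C57BL/6J 2 days replicate 1 and DBA/2J 5 days replicate 2, a setting chosen after seeing the data. Over both strains at 5 days Atf3 was called in all 21 settings run. The fall of the Fosl2 probe over both strains was not called when its 12 arrays were fitted alone (adjusted p = 0.0334). The cause of these shifts was not tested.

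The replicate block left the number of members called as it was in all 9 comparisons, with Atf3 at an adjusted p of 0.0187 in C57BL/6J and 0.0053 over both strains at 5 days, and the Fosl2 probe at 0.0204. Probes called in DBA/2J at 5 days were 100 with the block against 31 without it, and 14 against 9 in C57BL/6J at 2 days. The labels give the numbers no meaning, and deviations of same-numbered arrays correlated at -0.27 to 0.62. Counts over all probes depended most on the setting. With each replicate left out in turn, calls were 147 to 475 in C57BL/6J at 5 days (628 with all arrays), 6 to 69 in DBA/2J at 5 days (31), 22 to 428 over both strains at 2 days (83) and 1064 to 2607 over both strains at 5 days (2216). Over the other settings they were 395 to 1660, 3 to 194, 6 to 502 and 1879 to 3338 for the same comparisons, 0 to 135 in C57BL/6J at 2 days (9), 0 to 5 in DBA/2J at 2 days (0) and 0 to 634 between the controls (2).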
